A study of Homo sapiens with 12 samples.

Results

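Steady-state RNA, the RNA that has accumulated in the cells, was compared between PPM1G knockout and control HCT116 cells, an established human colorectal carcinoma line. The comparison used the 6 RNA-seq libraries of the series, 3 labelled Ctrl and 3 labelled PPM1G KO, out of 12 libraries in all. The other libraries measure nascent RNA and were not used here. Cells of both groups were grown under the same conditions, below passage 15, and synthetic ERCC RNAs of known amount were added to both. The titles call the controls Ctrl KO and the genotype label Ctrl, without saying what was edited in them. The labels do not say whether the knockout is a single clone or a pool, which site was edited, or whether the 3 libraries of a group came from separate cultures. The p-values therefore measure only the spread between these libraries. The members are all 56104 gene rows of the count table in 44 TYPE classes (its annotated biotypes), after its 92 ERCC rows were set aside. Of these rows, 20415 had enough counts to be tested.

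PPM1G is a nuclear, metal-dependent serine/threonine phosphatase of the PPM family. It is known for acting on components of the transcription and splicing machinery, among them the elongation kinase P-TEFb, which it can release from the inhibitory 7SK snRNP, and the SMN complex, which assembles spliceosomal snRNPs. The level of an RNA at steady state is set by its synthesis and its decay together. In bulk RNA, a change in the share of cells that carry a transcript and a change in RNA per cell cannot be told apart.

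The libraries held 30962756 to 42479828 counts in genes, and 3 counts in a library amounted to 0.0706 to 0.0969 CPM, the counts of a gene scaled to a common library size. The ERCC rows made up 0.524% ± 0.0422 (SD, n = 3) of the gene counts in Ctrl and 0.559% ± 0.0197 (SD, n = 3) in KO, a difference within the spread (exact permutation test, two-sided, p = 0.4, with 0.1 the smallest p that 3 against 3 allows). The leading principal component, with 72.4% of the variance, separated KO from Ctrl. KO replicates 1 and 2 were closer to each other (chi-square per gene of 1.71) than any other pair within a group (10.5 to 19.0), though further apart than sampling noise. The mitochondrial ribosomal RNA rows split the libraries across the groups. Ctrl replicates 1 and 3 and KO replicate 3 held 395 to 600 CPM of it, and the other 3 libraries 13.6 to 36.4 CPM. Of the markers of a colon epithelial line, EPCAM, CDH1, KRT8, KRT18, KRT19, CLDN7, ELF3 and CDX2 were tested. With CDX1, VIL1 and LGR5 included, they summed to 2793 to 3023 CPM in Ctrl and 2975 to 3014 CPM in KO, scaled by library size alone. The median log2 change of the tested ones was 0.01 with that scaling and -0.18 with the TMM scaling used for the tests below. CDX1 was at 0 in all 6 libraries, and LGR5 and VIL1 had at most 11 counts in a library. Of 29 markers of blood, vessel, connective tissue, nerve and other cell types, 22 were not tested, 7 of them at 0 in all libraries, including CD3E, COL1A2 and DCN, and the highest with 17 counts. All 29 together summed to 79.6 to 85.0 CPM in Ctrl and 116 to 123 CPM in KO, scaled by library size alone. Most of it was MBP, which is at 66.0 CPM in Ctrl with TMM scaling.

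PPM1G itself (chr2:27381194-27409687, minus strand, hg38) was at 326, 293 and 331 CPM in Ctrl replicates 1 to 3 and at 97.9, 95.0 and 98.0 CPM in the KO libraries. All KO libraries lay below all Ctrl libraries. The log2 change was -1.71 ± 0.06 (SE), with an adjusted p of 1.77e-10 by edgeR's quasi-likelihood test, and 30.6% of the Ctrl level was left. The count covers the whole gene, so it measures PPM1G RNA and not the edited protein.

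Across all genes, 9871 of the 20415 tested passed an adjusted p of 0.05, which is 48.4%. Of these, 4398 rose (21.5% of genes tested) and 5473 fell (26.8%). Most of the changes were small: 6466 of the called genes, 65.5%, changed by less than 1.5-fold, and the median absolute log2 change of called genes was 0.44. Large changes were mostly increases. By more than 2-fold, 1165 genes rose (5.71%) and 246 fell (1.20%), and by more than 4-fold 258 rose and 50 fell. In 11446 genes, 56.1%, all KO libraries lay on one side of all Ctrl libraries. The share of calls that rose depends on the scaling. It was 44.6% with TMM scaling, 61.6% when libraries were scaled to the ERCC rows and 72.5% with library size alone, where the median log2 change of all genes moved from 0.00 to 0.19. Under ERCC scaling the median was 0.08. No gene called with TMM scaling was called in the opposite direction under any alternative tried.

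Among genes whose mean log2 CPM over the 6 libraries reached 2, those with the largest increases were nearly silent in Ctrl. The 250 bases before the RefSeq start (GRCh38.p14) are shown for PXDN and EHF, the pair with the largest increase, and for TNFSF4 and ZNF595, from among the 8 largest decreases, so that the windows can be set beside the changes described next. Capitals mark matches on either strand to any of 9 short motifs: TATA box (TATAAA), AP-1 (TGANTCA), CRE (TGACGTCA), E box (CACGTG), NF-Y box (CCAAT), GC box (GGGCGG), ISRE core (by name only), ETS (CCGGAAG) and TCF (CTTTGATC). The PXDN window holds 6 matches, all of the GC box and NF-Y box, EHF 1 NF-Y box, TNFSF4 none, and ZNF595 5 matches of the NF-Y box, GC box and ETS motif. GENCODE 29 places the outermost start of all 4 genes farther upstream than the RefSeq start.
PXDN, chr2:1744516-1744765, minus strand: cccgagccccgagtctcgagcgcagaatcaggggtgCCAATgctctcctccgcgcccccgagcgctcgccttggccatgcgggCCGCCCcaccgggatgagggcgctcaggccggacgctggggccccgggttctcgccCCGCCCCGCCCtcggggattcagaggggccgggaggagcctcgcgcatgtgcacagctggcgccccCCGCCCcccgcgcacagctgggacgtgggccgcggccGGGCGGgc
EHF, chr11:34624007-34624256, plus strand: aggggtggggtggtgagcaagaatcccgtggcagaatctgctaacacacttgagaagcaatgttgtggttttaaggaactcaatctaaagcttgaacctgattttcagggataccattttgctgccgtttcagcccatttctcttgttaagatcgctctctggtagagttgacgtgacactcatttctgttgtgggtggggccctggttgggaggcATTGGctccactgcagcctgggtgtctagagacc
TNFSF4, chr1:173205533-173205782, minus strand: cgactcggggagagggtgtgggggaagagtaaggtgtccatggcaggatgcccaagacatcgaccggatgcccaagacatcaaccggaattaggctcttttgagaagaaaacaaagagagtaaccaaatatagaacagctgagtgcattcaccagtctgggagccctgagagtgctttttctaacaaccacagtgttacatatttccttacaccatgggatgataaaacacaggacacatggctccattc
ZNF595, chr4:53071-53320, plus strand: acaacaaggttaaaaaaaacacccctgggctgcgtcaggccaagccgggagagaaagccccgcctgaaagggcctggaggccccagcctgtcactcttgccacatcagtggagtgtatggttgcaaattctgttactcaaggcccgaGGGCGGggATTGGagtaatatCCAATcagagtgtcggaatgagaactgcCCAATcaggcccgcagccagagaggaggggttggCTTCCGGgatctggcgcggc

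PXDN, which encodes peroxidasin, an extracellular peroxidase that crosslinks collagen IV, was at 0.0247, 0 and 0.454 CPM in Ctrl and at 36.7, 35.5 and 37.2 CPM in KO. Its counts summed to 15 in Ctrl and 3926 in KO, and its log2 change was 7.96 ± 0.27 (SE, adjusted p = 1.26e-10). EHF, which encodes an ETS factor of epithelia, was at 0.222, 0.0896 and 1.78 CPM in Ctrl and at 108, 109 and 120 CPM in KO, a log2 change of 7.44 ± 0.34 (SE, adjusted p = 2.09e-09). In both genes the KO libraries agreed closely with each other, while Ctrl replicate 3 stood above the other Ctrl libraries. Without Ctrl replicate 3 the log2 changes were larger, at 11.09 for PXDN and 9.43 for EHF. Ctrl replicate 3 was the highest of the Ctrl libraries in 13 of the 20 genes that rose by more than 8-fold to a KO mean of at least 4 CPM, a set chosen after the values were seen. Its excess over the other Ctrl libraries had a median of 1.63% of the KO level. What this excess contributes was not tested, and the direction of both genes was the same without it.

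The next increases were in genes of several kinds. TLR3, an endosomal sensor of double-stranded RNA, was at 0.395 to 0.519 CPM in Ctrl and 8.33 to 9.23 CPM in KO (log2 change 4.32 ± 0.15, SE). CASP4, an inflammatory caspase that senses intracellular lipopolysaccharide, was at 1.60, 1.52 and 2.82 CPM in Ctrl and at 38.04, 37.6 and 39.99 CPM in KO (4.305 ± 0.13). KRT23, a type I keratin, was at 1.34 to 2.08 CPM in Ctrl and 28.2 to 29.4 CPM in KO (4.17 ± 0.11). Genes entered this set only where the groups did not overlap, as in 56.1% of all genes tested. NFIB, a nuclear factor I transcription factor, was at 1.28 to 1.52 CPM in Ctrl and 22.7 to 25.1 CPM in KO (4.13 ± 0.10). FLNC, the muscle-type filamin, was at 11.9, 11.2 and 10.96 CPM in Ctrl and at 157, 161 and 156 CPM in KO (3.80 ± 0.06, adjusted p = 4.15e-13). Among the 8 genes with the largest increases at a mean of at least 4 CPM over the 6 libraries, FLNC was the only one above 3 CPM in every Ctrl library. Genes chosen after their values were seen add to this set: KLK5, a kallikrein-related protease, had 6 counts over the Ctrl libraries and 586 over the KO libraries, and TIMP3, a metalloprotease inhibitor, had 5 and 508. KLK5 and TIMP3 passed the count filter only through their KO counts.

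At that same minimum level, the largest decreases were in genes expressed at modest levels in Ctrl and nearly lost in KO. ZNF595, a zinc finger gene at the end of the short arm of chromosome 4, was at 8.91, 8.88 and 8.30 CPM in Ctrl and at 0.0273, 0.0514 and 0.0311 CPM in KO, 4 counts over the 3 KO libraries (log2 change -7.74 ± 0.22, SE, adjusted p = 2.53e-11). TNC, which encodes the matrix protein tenascin C, went from 9.20, 7.38 and 8.34 CPM to 0.109, 0.0257 and 0.155 CPM (-6.43 ± 0.25). TNFSF4, the OX40 ligand, went from 14.6, 15.4 and 16.4 CPM to 0.273, 0.205 and 0.124 CPM (-6.22 ± 0.16). In each of these genes the KO libraries were all below 0.3 CPM and the Ctrl libraries all above 7 CPM. FGF9, a fibroblast growth factor, lay between 8.07 and 8.43 CPM in Ctrl and had a log2 change of -5.52 ± 0.18. Genes with higher Ctrl levels also fell steeply. NAV3, a neuron navigator protein, was at 51.3, 51.1 and 46.5 CPM in Ctrl and 2.48, 2.44 and 1.90 CPM in KO (-4.44 ± 0.09), and GLIS3, a Krüppel-like zinc finger factor, at 52.8, 52.0 and 50.7 CPM and 2.57, 2.57 and 2.08 CPM (-4.42 ± 0.08). The Ctrl and KO libraries of both were more than 10-fold apart. DACT1, an intracellular regulator of WNT signalling, fell by 4.42 ± 0.13, and TMEM200A, a transmembrane protein gene, by 3.80 ± 0.09. Chosen after their values were seen, ZNF502 had 432 counts over the Ctrl libraries and 1 over the KO libraries, 444-fold lower (95% exact interval 79.3 to 17573, counting error only), and SYTL5 had 518 and 2, 266-fold lower (73.3 to 2203). Both passed the count filter only through their Ctrl counts, and the intervals do not allow for the choice of extreme genes.

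**Figure D1:**
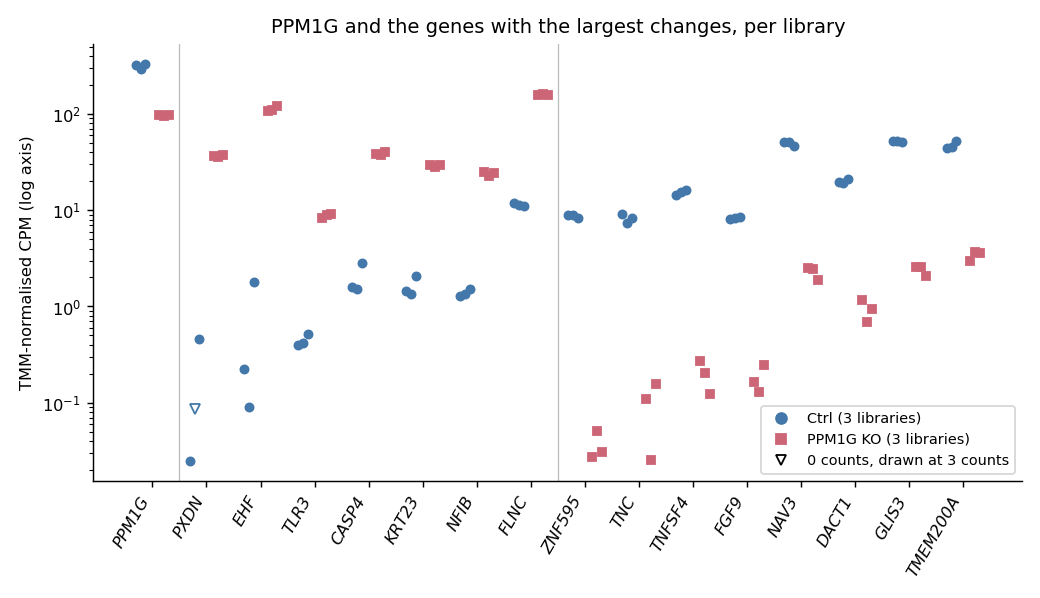
Level per library (TMM-normalised CPM, log axis) of PPM1G, of 7 of the 8 genes with the largest increase and of the 8 with the largest decrease; circles are the 3 Ctrl libraries, squares the 3 PPM1G KO libraries, and an open triangle marks 0 counts drawn at the level of 3 counts. The 2 groups are apart for every gene shown, which was a condition of choice for all but PPM1G. Ctrl replicate 3, the rightmost circle, stands above the other Ctrl libraries for PXDN and EHF.

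In absolute terms the largest gains and losses were in abundant RNAs. Of the 6 largest gains in CPM, 4 were rows of the signal recognition particle RNA 7SL: RN7SL1 was at 6883, 7108 and 7648 CPM in Ctrl and at 9200, 9594 and 8495 CPM in KO (log2 change 0.33 ± 0.07, SE, adjusted p = 0.00142). These 7SL rows are near-identical copies, and how reads were divided among them is uncertain. The other gains were FAT1, an atypical cadherin, at 1154, 1140 and 1081 CPM in Ctrl against 1613, 1578 and 1579 CPM in KO, and SCD, the stearoyl-CoA desaturase, at 682 to 729 CPM against 1029 to 1078 CPM. The losses were led by MT-CO1, the mitochondrially encoded subunit I of cytochrome c oxidase, at 4164, 4045 and 3797 CPM in Ctrl and 2332, 2290 and 2728 CPM in KO (-0.71 ± 0.08, adjusted p = 5.60e-06), and by its nuclear copy MTCO1P12 (-0.97 ± 0.10). FLNA, the main non-muscle filamin, was at 1918, 1867 and 1923 CPM in Ctrl and at 907, 923 and 918 CPM in KO (-1.05 ± 0.06, adjusted p = 7.78e-09). The cytoplasmic actins ACTB (-0.65 ± 0.06) and ACTG1 (-0.58 ± 0.07) fell beside it. The last was the MIR3648-1 row, at 3628, 3655 and 3644 CPM in Ctrl and 2720, 3111 and 2719 CPM in KO (-0.35 ± 0.07). Its annotated mature product, hsa-miR-3648, is shown because the row's level cannot be read as that of a short RNA; the entry of its second copy at chr21:8987026-8987046, plus strand, reads as follows, with the seed (bases 2 to 8) in capitals.
hsa-miR-3648: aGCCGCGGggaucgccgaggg

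The direction of change ran with the level of expression. Of the protein_coding genes with a mean under 1 CPM over the 6 libraries, 37.0% rose and 3.04% fell, and their median log2 change was 0.47. Between 4 and 16 CPM, 39.3% rose and 19.2% fell. Above 64 CPM, 8.36% rose and 58.6% fell, with a median of -0.22. So among called genes, those at low levels were mostly higher in KO and those at high levels mostly lower. The same order held whichever group set the level. Genes under 1 CPM in Ctrl rose in 45.2% of cases and fell in 2.13%, genes under 1 CPM in KO rose in 29.9% and fell in 6.21%, and genes above 64 CPM in KO rose in 10.5% and fell in 55.3%. The count filter kept a gene near 0 in 1 group only if the other group was higher, so part of each low bin was fixed by it. All 29 tested genes with 0 to 3 counts over the Ctrl libraries were called, and all 10 with 0 to 3 over the KO libraries. With ERCC scaling the medians were 0.55 under 1 CPM and -0.13 above 64 CPM, and with library size alone 0.65 and -0.03, so the step between the levels stayed while its zero moved. Leaving out each library in turn gave medians of 0.44 to 0.60 under 1 CPM and of -0.24 to -0.17 above 64 CPM.

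Rows that were too low to test had a higher sum in KO. The 35689 untested rows together held 906 to 1103 CPM in Ctrl and 1213 to 1386 CPM in KO, 1.32-fold more (exact permutation test, p = 0.1, the smallest possible). Rows that a colon line should lack gave different values. The 261 immunoglobulin and T cell receptor V genes summed to 0.292 to 0.568 CPM in Ctrl and 0.808 to 1.23 CPM in KO, and 365 olfactory receptor genes to 72.3 to 142 CPM and 97.5 to 124 CPM, with overlapping groups (exact permutation test, p = 0.9). The part of such background reads in the rise of low genes was not tested.

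**Figure D2:**
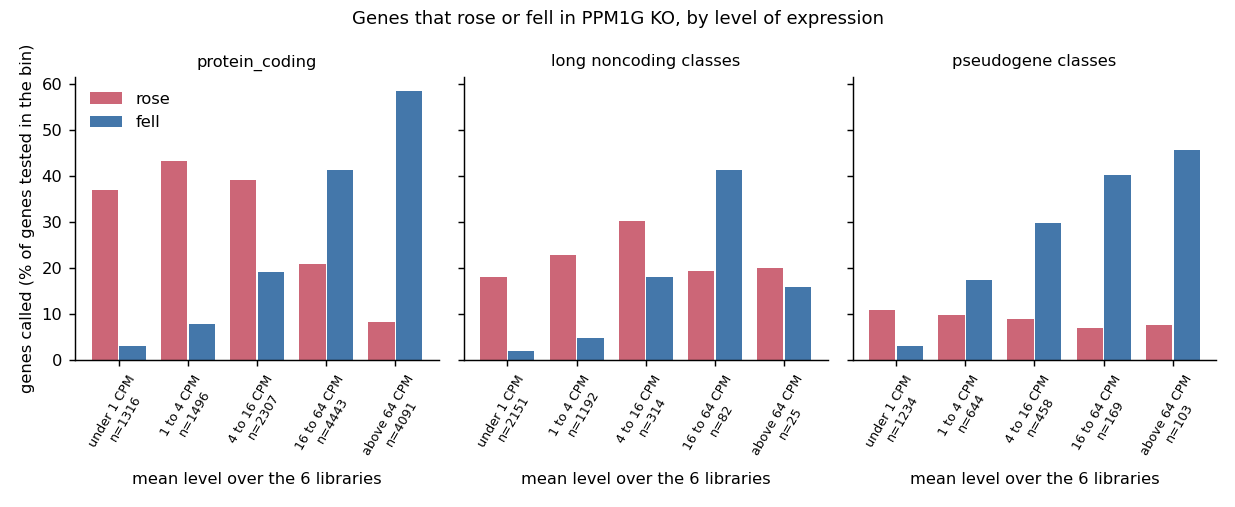
Share of tested genes that rose or fell (y axis, %) in 5 bins of the mean level over the 6 libraries (x axis, CPM, with the number of genes), for protein_coding genes, for the long noncoding classes together and for the pseudogene classes together. In protein_coding genes the share that rose goes from 37.0% in the lowest bin to 8.36% in the highest, and the share that fell from 3.04% to 58.6%.

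By TYPE class, most called long noncoding rows were higher in KO, while of 2608 pseudogene rows 260 rose (9.97%) and 403 fell (15.5%). Of 3764 tested rows of lincRNA, antisense, TEC (transcribed rows whose gene status awaits experiment), sense_intronic, processed_transcript and sense_overlapping, 777 rose and 195 fell. That was 20.6% and 5.18%, against 21.5% and 26.8% of all genes tested, and 79.9% of their calls were increases. Of 13653 protein_coding genes, 3316 rose (24.3%) and 4835 fell (35.4%), so that 59.7% were called, 40.7% of calls being increases, but with ERCC scaling 3245 rose and 2451 fell and with library size alone 5576 and 2561. These classes differ in level, and within the long noncoding rows the share that fell went from 1.95% under 1 CPM to 41.5% between 16 and 64 CPM, and above 64 CPM 4 of 25 rows fell. The share that rose did not go down with level: it was 18.0%, 22.9%, 30.3%, 19.5% and 20.0% in the 5 bins from low to high. In protein_coding genes the share that rose was 37.0%, 43.2%, 39.3%, 21.0% and 8.36% in the same bins. Whether the classes differ beyond level was not tested.

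Among lincRNA, the long intergenic RNAs, 309 of 1082 rose (28.6%) and 70 fell (6.47%), with a median log2 change of 0.27. Among rows whose mean log2 CPM reached 1, RP4-568C11.4 had the largest increase, from 0.518, 0.717 and 0.778 CPM to 3.50, 3.93 and 4.85 CPM (2.62 ± 0.20, SE, adjusted p = 2.14e-07), and RP11-54O7.17 the largest decrease (-1.01 ± 0.14). Neither had overlapping groups, which held for 500 of the 1082 tested lincRNA rows. Of 320 sense_intronic rows, which lie inside introns of other genes, 53 rose (16.6%) and 7 fell (2.19%), with a median of 0.24. Of 298 TEC rows 57 rose (19.1%) and 8 fell (2.68%), with a median of 0.28. Over all genes tested, 21.5% rose and 26.8% fell. With libraries scaled to the ERCC rows, 315 lincRNA rows rose and 43 fell, and with library size alone 459 rose and 40 fell. A block for the split in mitochondrial ribosomal RNA left 267 up and 75 down.

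Of 1783 antisense rows, which overlap another gene on the opposite strand, 283 rose (15.9%) and 85 fell (4.77%), with a median of 0.19. Over all genes tested, the shares were 21.5% and 26.8%. The strand setting of the counting is not given in the sources used here, so reads of an antisense row and of its partner cannot be told apart. Of 232 antisense rows that rose and had a tested protein_coding partner, the partner rose in 98, fell in 63 and was not called in 71. Over all such partners, 17.8% rose and 45.7% fell. Of 72 antisense rows that fell, the partner fell in 45 and rose in 8. Of those whose mean log2 CPM reached 1, the antisense row that fell most was RP11-129M16.4, at 10.0, 9.29 and 8.08 CPM in Ctrl and 3.99, 4.52 and 4.98 CPM in KO (-1.03 ± 0.11).

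Processed pseudogenes are retrocopies of messenger RNAs, and most of those that fell had a parent gene that fell. Of 1869 tested, 125 rose (6.69%) and 320 fell (17.1%), against 21.5% and 26.8% of all genes tested. But with ERCC scaling 150 rose and 121 fell and with library size alone 300 rose and 115 fell. Of 216 that fell and had a tested parent gene (transcribed ones included), the parent also fell in 173 and rose in 1, and over all such parents 41.8% fell and 7.43% rose. Reads of a parent and its copy are near-identical, so these rows are not independent of their parents. ACTN4P1, a copy of the actinin gene ACTN4, went from 8.02, 6.01 and 6.71 CPM to 2.89, 3.47 and 2.86 CPM (-1.17 ± 0.13), and ACTN4 itself fell too. In another class the balance was upward: of 284 transcribed_unprocessed_pseudogene rows 72 rose (25.4%) and 21 fell (7.39%). MST1L, a row of this class, was at 1.78, 1.97 and 1.43 CPM in Ctrl and 4.31, 3.88 and 3.92 CPM in KO (1.22 ± 0.14).

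**Figure D3:**
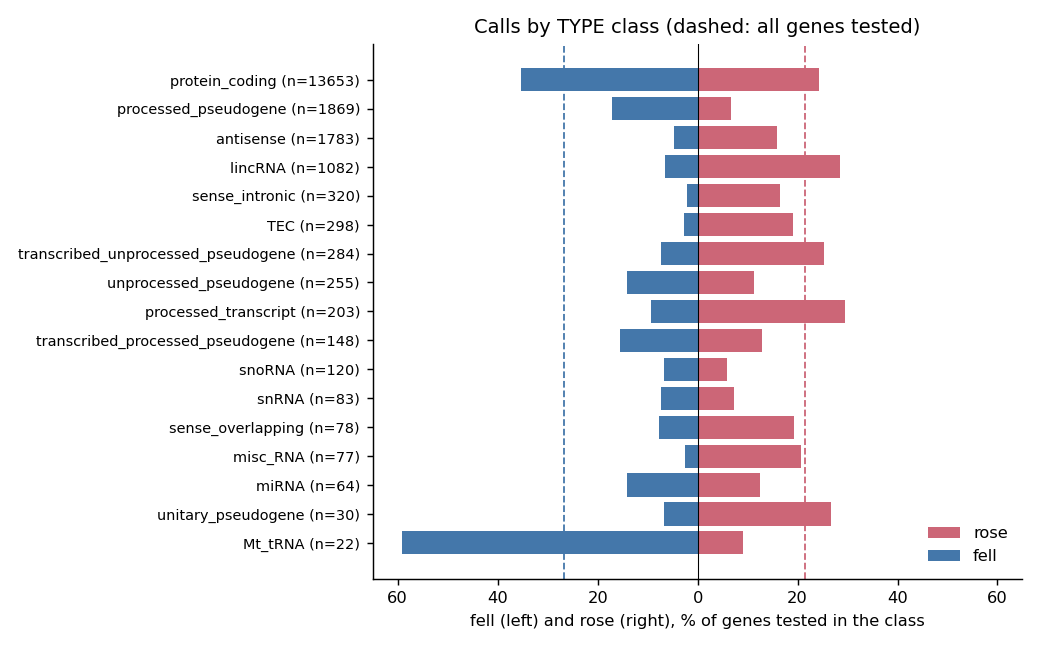
Share of tested genes that fell (left) and rose (right), in % of the tested genes of each TYPE class with at least 20 tested genes, ordered by their number; dashed lines are the shares over all genes tested, 26.8% and 21.5%. In each long noncoding class the bar to the right is longer than the bar to the left, though only lincRNA and processed_transcript of these classes pass the right dashed line; Mt_tRNA and protein_coding pass the left one.

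The short RNA classes held few calls, and the way the libraries were made is not given in the sources used here, so these rows may not measure mature short RNAs. Of 120 snoRNA rows 7 rose and 8 fell, of 83 snRNA rows 6 and 6, and of 64 miRNA rows 8 and 9. All 4 called scaRNA rows of 12 tested rose. RNU1-85P, a variant copy of U1 snRNA, went from 3.85, 4.09 and 4.77 CPM to 0.928, 1.00 and 1.18 CPM (-2.03 ± 0.16, adjusted p = 2.91e-07), and RNY1, the Y1 RNA of Ro ribonucleoproteins, rose from 2.72 to 3.45 CPM in Ctrl to 6.23 to 7.74 CPM in KO (1.07 ± 0.13).

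As shares of all gene counts, the classes moved little. The protein_coding share was 91.3%, 91.6% and 91.2% in Ctrl and 90.4%, 90.3% and 90.3% in KO. The misc_RNA share was 2.27% ± 0.144 (SD, n = 3) in Ctrl and 3.14% ± 0.122 in KO, and its 7SL rows accounted for 1.97% and 2.76%. In both classes the groups did not overlap (exact permutation test, p = 0.1, the smallest possible). The unprocessed_pseudogene share fell from 0.525% to 0.370%, which lay in the nuclear copies of mitochondrial genes (0.452% and 0.289%); without them it was 0.0726% and 0.0810%. The lincRNA share overlapped between groups, at 0.573% ± 0.198 and 0.517% ± 0.213, and 2 of its rows, CH507-513H4.3 and CH507-513H4.4, were high and low in the same libraries as the mitochondrial ribosomal RNA. Without these rows it was 0.314% ± 0.0119 in Ctrl and 0.382% ± 0.00338 in KO, without overlap.

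Of the 37 rows encoded by mitochondrial DNA 25 fell, 2 rose and the rest, both ribosomal RNA rows among them, were not called. Their summed share was 1.91%, 1.85% and 1.71% of gene counts in Ctrl and 1.39%, 1.35% and 1.65% in KO. All KO libraries were lower, and KO replicate 3, one of the libraries with high mitochondrial ribosomal RNA, was the nearest to Ctrl. Of the 13 messenger RNAs, 12 fell and none rose (median log2 change -0.43, which was -0.34 with ERCC scaling and -0.24 with library size alone, where 9 fell). MT-ND1 and MT-ND2, subunits of complex I, fell by 0.58 ± 0.08 and 0.58 ± 0.09. Of 22 mitochondrial tRNA rows 13 fell and 2 rose. MT-TL1, the leucine tRNA, was at 10.0, 5.11 and 7.85 CPM in Ctrl and 1.80, 2.26 and 5.29 CPM in KO, with overlap of KO replicate 3 and Ctrl replicate 2 (-1.34 ± 0.31, or -1.93 without KO replicate 3). The nuclear genes of the respiratory chain gave no such direction: of 83, 17 rose and 20 fell, with ERCC scaling 21 and 3, with library size alone 47 and 3, and without Ctrl replicate 3 they were 33 and 11.

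Gene lists were read against the background of all genes, of which 21.5% rose and 26.8% fell, and of the abundant protein_coding genes, of which 58.6% fell. Lists were chosen with earlier results of these data known. By rule, the members named from a list were its called members with the smallest p. Separate groups in them follow largely from that choice, and 56.1% of all genes tested had separate groups.

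The list nearest to PPM1G's known partners, P-TEFb, 7SK and other factors of pause release and elongation, had 19 of 32 tested members lower and 6 higher, with a median of -0.22. The 59.4% that fell and this median were near those of protein_coding genes above 64 CPM, 58.6% and -0.22. With ERCC scaling 9 fell and 7 rose, and with library size alone 9 and 8. SUPT5H, the large subunit of the elongation factor DSIF, was at 208, 185 and 204 CPM in Ctrl and 124, 124 and 125 CPM in KO (-0.68 ± 0.06, adjusted p = 7.97e-07). MLLT3, a subunit of the super elongation complex, was at 4.42, 4.78 and 4.74 CPM in Ctrl and 16.7, 17.1 and 18.8 CPM in KO (1.92 ± 0.08, adjusted p = 1.00e-09). CDC73, a subunit of the PAF1 complex, rose by 0.52 ± 0.06. Named after their values were seen, CDK9, the kinase of P-TEFb, and its 7SK-bound inhibitor HEXIM1 were among those that fell, and HEXIM2 among those that rose.

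Of the SMN complex and the Sm core of snRNPs, 13 of 23 fell and 1 rose, and of SR proteins, hnRNPs and splicing kinases 23 of 35 fell and 1 rose. The shares that fell were 56.5% and 65.7%, beside 58.6% of protein_coding genes above 64 CPM. GEMIN4 (172, 160 and 165 CPM against 107, 110 and 106 CPM) and GEMIN5 (200, 190 and 196 CPM against 135, 137 and 137 CPM) belong to the SMN complex, and SRPK1, the kinase of SR proteins, fell by 0.62 ± 0.05. In these 3 genes, named for their small p, the groups did not overlap. With ERCC scaling 5 and 12 members of these lists fell, so many of these decreases depend on the scaling. With library size alone 5 SMN and Sm genes fell and 6 rose. Without Ctrl replicate 3, 10 SMN and Sm genes fell and 4 rose. SMN1 and SMN2 are near-identical copies, and their separate values are uncertain. Of 18 other phosphatases of the PPM family and its partners, 7 rose and 4 fell, and 2 fell without Ctrl replicate 3, KO replicate 1 or KO replicate 2. PPM1K, the mitochondrial branched-chain ketoacid dehydrogenase phosphatase, had the largest rise, from 5.16, 5.65 and 5.71 CPM to 10.7, 9.35 and 11.4 CPM (0.93 ± 0.10).

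Interferon-stimulated genes were the list with the largest median, 0.92: 24 of 32 tested members rose (75.0%) and 1 fell. SAMD9, an antiviral factor, was at 18.8, 20.9 and 23.4 CPM in Ctrl and 75.8, 73.4 and 79.2 CPM in KO (1.86 ± 0.07, SE, adjusted p = 5.92e-10). PARP9, which acts with DTX3L in interferon signalling, went from 4.51, 4.09 and 3.96 CPM to 14.1, 14.9 and 15.0 CPM (1.80 ± 0.08), and IFIH1, the RNA sensor MDA5, from 3.08, 3.05 and 3.11 CPM to 9.20, 8.89 and 9.86 CPM (1.59 ± 0.10). The groups were apart in all 3, which were named for their small p, as in 56.1% of all genes tested. The change was uneven over the list. ISG15, IFIT5, OAS3, IRF1 and IRF9 did not pass the test, with log2 changes of -0.12, -0.08, -0.02, -0.07 and 0.18; these were named after their values were seen. Under ERCC scaling 23 rose and 0 fell, and with KO replicates 1 and 2 counted as 1 library 22 rose and 1 fell. Genes of antigen presentation had 8 of 16 higher and 3 lower. NLRC5, the transactivator of MHC class I genes, went from 5.77, 5.80 and 5.74 CPM to 14.5, 14.8 and 13.6 CPM (1.31 ± 0.08), and B2M, the light chain of class I, from 112, 116 and 130 CPM to 214, 230 and 217 CPM (0.89 ± 0.06).

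NF-kB and TNF response genes went both ways, with 7 of 22 higher and 6 lower. BIRC3, an inhibitor of apoptosis, rose from 2.00 to 2.14 CPM in Ctrl to 4.06 to 5.41 CPM in KO (1.24 ± 0.14), and NFKB1, which encodes the p105 and p50 subunits, fell from 93.7 to 100 CPM to 55.4 to 59.5 CPM (-0.76 ± 0.06). TNFAIP2 rose by 0.72 ± 0.05. Of the caspase and pyroptosis list 5 of 12 rose and 2 fell. Beside CASP4, CASP10, an initiator caspase, went from 0.395, 0.568 and 0.876 CPM to 3.17, 3.72 and 3.89 CPM (2.59 ± 0.22).

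Of the genes downstream of growth factor signalling, more fell than rose. Of 31 immediate early genes 20 fell (64.5%) and 4 rose, with a median of -0.36. FOSL1, which encodes the AP-1 subunit FRA1, was at 288, 245 and 254 CPM in Ctrl and 63.1, 65.9 and 63.6 CPM in KO (-2.03 ± 0.07, adjusted p = 1.02e-10). ZFP36L1, an RNA-binding protein that promotes messenger RNA decay, was at 273, 246 and 243 CPM against 62.0, 68.2 and 64.02 CPM (-1.97 ± 0.07), and KLF4, a Krüppel-like factor of differentiating epithelium, at 47.9, 44.8 and 46.7 CPM against 13.5, 13.8 and 14.6 CPM (-1.73 ± 0.06). Each fell by more than 3-fold with groups far apart. JUNB, which encodes another AP-1 subunit, was among the 4 that rose; it was named after its value was seen. Of 24 genes of ERK output and feedback 13 fell (54.2%) and 1 rose, with a median of -0.24. These were near the values of protein_coding genes above 64 CPM, of which 58.6% fell, with a median of -0.22. DUSP4, a phosphatase of MAP kinases, was at 271, 256 and 271 CPM against 101, 102 and 96.9 CPM (-1.41 ± 0.06), and AREG, the EGFR ligand amphiregulin, at 185, 172 and 188 CPM against 69.2, 70.5 and 74.5 CPM (-1.35 ± 0.06).

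Targets of the Hippo and actin programmes were mostly lower. Of 20 tested targets of YAP and TEAD, the effectors of Hippo signalling, 19 fell (95.0%) and none rose, with a median of -0.64. F3, tissue factor, was at 204, 208 and 217 CPM in Ctrl and 63.4, 62.2 and 59.9 CPM in KO (-1.76 ± 0.06, adjusted p = 7.11e-11). CYR61, a matricellular protein, was at 39.4, 34.5 and 36.0 CPM against 15.4, 15.4 and 15.7 CPM (-1.24 ± 0.06), and AMOTL2, an angiomotin that binds YAP, fell by 1.24 ± 0.06 as well. With ERCC scaling 15 fell, and with library size alone 15 fell and 1 rose. Of 29 cytoskeletal targets of SRF, 23 fell and 4 rose (median -0.42). MYH9, the heavy chain of non-muscle myosin IIA, was at 1257, 1200 and 1219 CPM against 567, 570 and 588 CPM (-1.09 ± 0.06), and FLNA and the actins are described above. FLNC, with its rise of 3.80, is a member of this list and went against it.

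**Figure D4:**
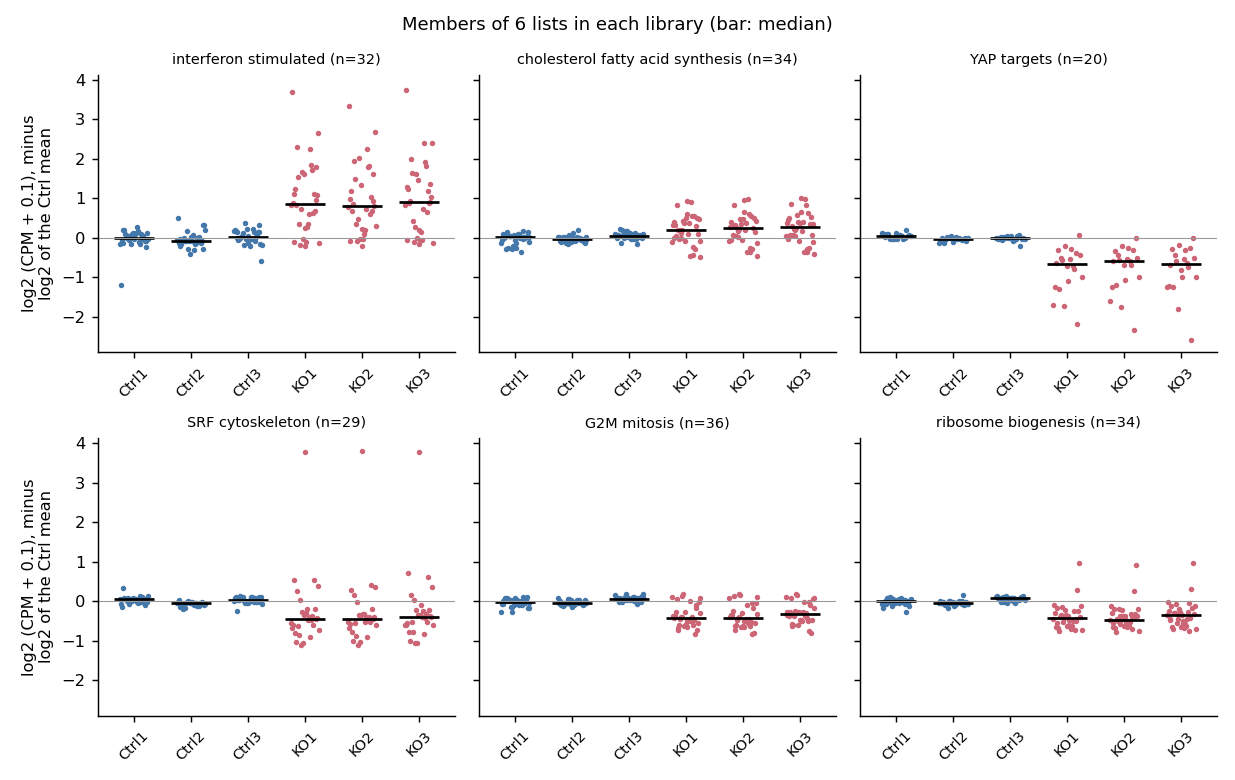
Members of 6 gene lists in each library (x axis): log2 of CPM plus 0.1, minus log2 of the Ctrl mean of that quantity (y axis); each point is a gene and the bar is the median. In every KO library the medians of the interferon and the cholesterol and fatty acid lists are above 0 and those of the other 4 lists below 0, and the point near 4 in the SRF panel is FLNC.

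Genes of G2 and mitosis were lower by small amounts. Of 36 genes of G2 and mitosis 28 fell (77.8%) and none rose, with a median of -0.38. UBE2C, the ubiquitin-conjugating enzyme of the anaphase-promoting complex, was at 222, 215 and 233 CPM in Ctrl and 126, 125 and 131 CPM in KO (-0.81 ± 0.06, adjusted p = 9.74e-08), and TPX2, a spindle assembly factor, at 525, 487 and 521 CPM against 333, 323 and 337 CPM (-0.63 ± 0.05). Both were named for their small p and had groups well apart. With ERCC scaling 24 fell and 2 rose, with library size alone 24 and 8. Of 44 genes of G1/S and DNA replication 24 fell and 3 rose (median -0.18), but with ERCC scaling 11 and 4 and with library size alone 11 and 12, and without Ctrl replicate 3 they were 21 and 7. In the G2 list 4 rose without that library. CCNE1, cyclin E1, fell by 0.50 ± 0.05, and CCND1, cyclin D1, was at 990, 1048 and 1074 CPM against 663, 681 and 681 CPM (-0.62 ± 0.06). Of 53 replication-dependent histone genes 24 fell and 5 rose (20 and 8 without Ctrl replicate 3, 15 and 6 with ERCC scaling, 15 and 14 with library size alone); HIST2H2AA3 and HIST2H2AA4 are identical copies with changes of -0.57 and -0.58. Their messages lack a poly(A) tail, so their values depend on how the RNA was selected.

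Targets of p53 had 15 of 29 members higher and 9 lower (median 0.17), or 14 and 3 with ERCC scaling. GDF15, a stress cytokine, was at 38.1, 34.5 and 38.9 CPM in Ctrl and 91.5, 93.1 and 97.0 CPM in KO (1.34 ± 0.06, adjusted p = 2.29e-09), and TP53INP1, a proapoptotic and autophagy factor, at 9.13, 8.79 and 8.59 CPM against 19.1, 20.0 and 21.9 CPM (1.20 ± 0.07). PLK2, a polo-like kinase of the list, fell from 148 to 154 CPM to 64.6 to 72.0 CPM (-1.15 ± 0.06). Named after their values were seen, CDKN1A, the inhibitor p21, rose by 0.44, while MDM2 (0.12) and BAX (0.03) did not pass the test.

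Genes that assemble ribosomes in the nucleolus fell with few exceptions: 30 of 34 ribosome biogenesis genes fell (88.2%) and 2 rose (median -0.41). TCOF1, which serves RNA polymerase I, was at 403, 368 and 394 CPM in Ctrl and 236, 231 and 239 CPM in KO (-0.72 ± 0.05, adjusted p = 2.21e-07), and POLR1E, a subunit of that polymerase, fell by 0.73 ± 0.05. GNL3, nucleostemin, was 1 of the 2 that rose, from 196, 197 and 215 CPM to 399, 383 and 393 CPM (0.95 ± 0.06). With ERCC scaling 23 fell and the same count of 2 rose. The ribosomal proteins themselves barely moved. Of 82 cytosolic ribosomal protein genes 7 rose and 20 fell, with a median of -0.02 that turned to 0.08 with ERCC scaling and 0.17 with library size alone, where 45 rose and 4 fell. Without Ctrl replicate 3, 19 rose and 13 fell. Of 79 mitochondrial ribosomal proteins 8 rose and 25 fell, a median of -0.08 that turned to 0.01 and 0.11 under those scalings; without Ctrl replicate 3, 13 rose and 18 fell.

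Of the protein quality control and stress lists, only heat shock proteins and chaperones fell more often than protein_coding genes above 64 CPM (58.6%). For the proteasome, NRF2, unfolded protein response and ATF4 lists the share that fell was below that. Of 23 heat shock proteins and chaperones 18 fell and none rose (median -0.33). BAG3, a co-chaperone of HSP70, was at 246, 206 and 225 CPM against 115, 125 and 124 CPM (-0.90 ± 0.07), and HSPA1A and HSPA1B, near-identical HSP70 genes whose reads may be shared, fell by 0.87 ± 0.07 and 0.68 ± 0.06. Of 32 proteasome subunits 18 fell and none rose (11 and 2 with ERCC scaling, 10 and 10 with library size alone, 14 and 5 without Ctrl replicate 3), led by PSMC5, an ATPase of the regulatory particle, at 240, 246 and 270 CPM against 123, 126 and 134 CPM (-0.98 ± 0.06). Of 30 genes of the NRF2 and glutathione response 17 fell and 3 rose (9 and 3 with ERCC scaling, 10 and 9 with library size alone). GCLM, the modifier subunit of glutathione synthesis, fell from 101, 122 and 130 CPM to 65.3, 66.1 and 68.3 CPM (-0.82 ± 0.08). Of 25 genes of the unfolded protein response 12 fell and 4 rose, and with library size alone 5 fell and 9 rose. Of 28 ATF4 targets 12 rose and 9 fell.

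**Figure D5:**
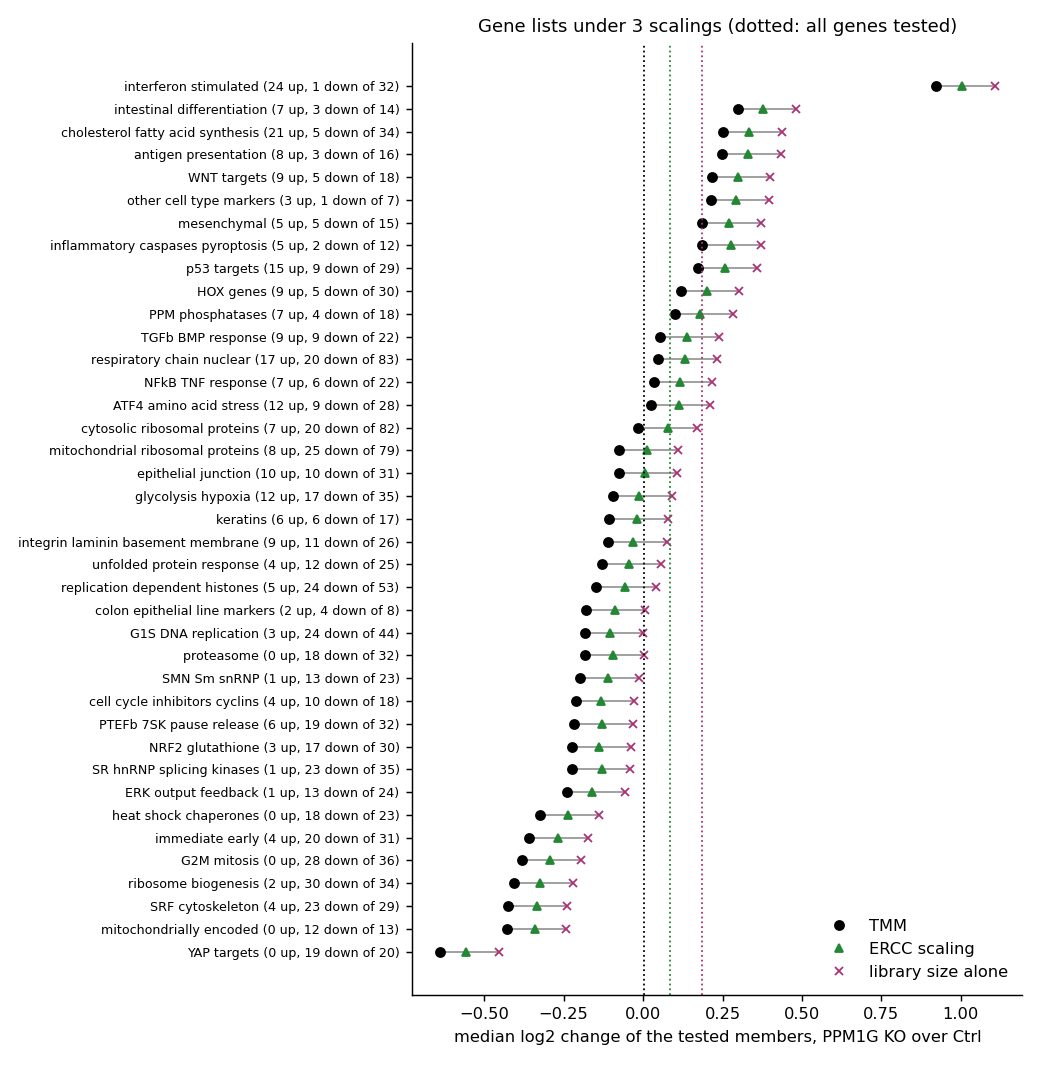
Median log2 change (x axis, KO over Ctrl) of the tested members of each gene list (y axis, with the numbers that rose and fell with TMM scaling), under TMM, ERCC and library size scaling; dotted lines are the medians of all genes tested, 0.00, 0.08 and 0.19. Interferon-stimulated genes lie far right of all other lists and YAP targets far left under each scaling.

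Genes of lipid synthesis mostly rose. Of 34 genes for cholesterol and fatty acid production 21 rose (61.8%) and 5 fell (median 0.25). INSIG1, the sterol-regulated inhibitor of SREBP processing, was at 51.0, 55.7 and 60.7 CPM in Ctrl and 107, 108 and 112 CPM in KO (0.96 ± 0.07, SE). It was named for its small p, and its groups were apart. FASN, fatty acid synthase, fell by 0.39; it was named after its value was seen. Of 35 genes of glycolysis and hypoxia 12 rose and 17 fell, but 10 and 10 with ERCC scaling and 16 and 9 with library size alone. HKDC1, a hexokinase-like gene, had the largest rise of the list, from 0.271, 0.239 and 0.162 CPM to 5.22, 5.06 and 5.50 CPM (4.501 ± 0.19), BNIP3L, a mitophagy receptor, rose by 1.10 ± 0.07, and PFKP, the platelet phosphofructokinase, fell from 426, 391 and 427 CPM to 232, 236 and 239 CPM (-0.82 ± 0.05).

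Genes of epithelial identity had no common direction. Of 31 junction genes 10 rose and 10 fell. DSC2, desmocollin 2, was at 143, 151 and 156 CPM in Ctrl and 39.8, 39.3 and 45.5 CPM in KO (-1.85 ± 0.07, adjusted p = 2.96e-10), and TJP3, a tight junction scaffold, at 7.35, 6.37 and 7.39 CPM against 24.0, 23.9 and 26.4 CPM (1.81 ± 0.08). GRHL2, a grainyhead factor of epithelia, rose by 0.75 ± 0.05 and CDH1, E-cadherin, by 0.34 ± 0.06. Of the mesenchymal list 5 of 15 rose and 5 fell: beside TNC, ZEB1, a repressor of CDH1, fell from 11.5, 11.3 and 10.5 CPM to 2.89, 2.70 and 3.30 CPM (-1.91 ± 0.10), and S100A4 rose from 86.2, 85.2 and 98.3 CPM to 184, 183 and 190 CPM (1.05 ± 0.06). Keratins also split, with 6 of 17 higher and 6 lower. KRT7, of simple epithelia, went from 3.21 to 3.60 CPM to 12.03 to 13.3 CPM (1.93 ± 0.09) and KRT80 from 43.3 to 48.1 CPM to 15.3 to 16.1 CPM (-1.51 ± 0.06). The colon markers KRT8, KRT18, KRT19 and EPCAM stayed the abundant ones, with log2 changes of -0.11, -0.33, -0.19 and -0.17.

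Of 36 intestinal differentiation genes, 14 had enough counts to be tested, and 7 of these rose and 3 fell. VIL1, FABP1, MUC2 and SI were among those too low to test. The share that rose was 50.0%, against 21.5% of all genes tested and 43.2% of protein_coding genes between 1 and 4 CPM. SLC15A1, the peptide transporter of the intestinal brush border, had 3 counts over the Ctrl libraries and 277 over the KO libraries, 89.9-fold more (95% exact interval 30.4 to 438, counting error only), and was at 2.43, 2.31 and 3.05 CPM in KO. It passed the count filter only through its KO counts. DPP4, a brush border peptidase, was at 0.395, 0.598 and 0.681 CPM in Ctrl and 5.49, 5.16 and 6.69 CPM in KO (3.39 ± 0.19). CDX2, an intestinal transcription factor, fell from 30.6, 26.5 and 30.6 CPM to 21.5, 22.2 and 22.4 CPM (-0.41 ± 0.07). Of 18 WNT targets 9 rose and 5 fell. EPHB2, an ephrin receptor of crypt cells, was at 14.0, 11.7 and 13.9 CPM against 40.1, 41.2 and 41.8 CPM (1.63 ± 0.07), while SOX4 and SOX9, transcription factors of progenitor cells, fell by 1.49 ± 0.07 and 1.08 ± 0.06.

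TGF-beta and BMP response genes split evenly, with 9 of 22 higher and 9 lower. BMP4, a BMP ligand, was at 143, 129 and 142 CPM in Ctrl and 29.03, 31.6 and 31.7 CPM in KO (-2.16 ± 0.07, adjusted p = 4.79e-11). ID2, a target of BMP signalling, was at 23.0, 22.3 and 27.0 CPM against 92.8, 96.9 and 101 CPM (2.01 ± 0.07). BMP4 and ID2 thus moved in opposite directions with groups far apart. Named after their values were seen, ID1, ID3, ID4 and SMAD6 were also among the 9 that rose. Integrin, laminin and basement membrane genes had 9 of 26 higher and 11 lower (11 and 9 with library size alone): beside PXDN, ITGA2, a collagen-binding integrin subunit, rose from 46.3, 47.6 and 46.6 CPM to 88.3, 85.1 and 95.9 CPM (0.94 ± 0.06), and AGRN, agrin, fell from 146, 155 and 127 CPM to 61.1, 64.6 and 60.8 CPM (-1.20 ± 0.07). Of 30 HOX genes 9 rose and 5 fell, with HOXD8 up by 0.96 ± 0.11 and HOXA11 down by 0.62 ± 0.08.

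The changes were spread over the genome and over gene sizes. Median log2 changes of the nuclear chromosomes lay between -0.07 and 0.05, and those of 234 windows of 10 Mb between -0.34 and 0.22. Over 13098 protein_coding genes, Spearman's rho between the log2 change and gene span was -0.01, exon length -0.05 and GC content -0.04, as a description across genes, which are not independent replicates. Of genes spanning more than 300 kb, 33.8% rose and 31.8% fell, and of genes under 5 kb 22.4% and 27.5%. The median over genes with a GC content of 45 to 50% was the lowest, -0.14.

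Promoters of changed genes were compared for the same 9 motifs in the 250 bases before the RefSeq start, in 10425 of the 13653 protein_coding genes tested, 76.4%. The ETS motif was in 15.2% of these promoters. It was in 14.9% of the 10973 promoters matched to a tested gene of any class, a set that holds these promoters. The motif was in 9.60% of the promoters of genes that rose, in 17.6% of those that fell, in 3.66% of the 546 genes that rose by more than 2-fold and in 4.73% of the 148 that fell by more than 2-fold. The TATA box was in 5.52% of all tested, and in 9.71% and 8.11% of the genes that rose and fell by more than 2-fold. The ETS share ran with the level of expression. Among genes under 1 CPM the ETS motif was in 3.01% of those that rose and 4.92% of those not called, and above 64 CPM in 17.9% and 23.0%. CRE, E box and ISRE core matches were in 1.65%, 6.59% and 3.85% of the genes that rose by more than 2-fold, against 2.78%, 8.85% and 2.31% of all tested. A match is a description of the sequence and not evidence of binding.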

How the data were processed

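The table holds raw counts per gene, deposited by the authors for 6 RNA-seq libraries, 3 Ctrl and 3 PPM1G KO, and the submitters' processing notes name FastQC 0.11.2, HISAT2 2.1.0, SAMtools 1.3, featureCounts and the build hg38, with no roles; no source used here gives the annotation or the strand setting. Every per-library column of the table was matched to a sample by name. The second header line was dropped, and the ERCC rows, which have no gene identifier, were kept out of library sizes and tests. Coordinates came from GENCODE 29, which matched 94.3% of gene rows, and sequences from RefSeq (GRCh38.p14).

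Genes were kept with edgeR's filterByExpr (minimum count 10), scaled by TMM and tested KO against Ctrl with edgeR 4.0.16's quasi-likelihood F test in R 4.3.3, two-sided, with Benjamini-Hochberg adjustment over all 20415 genes and a threshold of 0.05. Each standard error is the size of the log2 change over the square root of its F statistic. Levels of genes are TMM-normalised CPM, and since CPM is not per length, levels are compared within a gene only. The summed cell type markers, the mitochondrial ribosomal RNA and the CPM of 3 counts are scaled by library size alone. The fit was tested on simulated data. Named genes were PPM1G, the 8 highest and 8 lowest log2 changes of called genes whose groups were apart and whose mean log2 CPM reached 2, the 6 largest gains and losses in CPM, the highest and lowest called gene, at a mean log2 CPM of at least 1, of each class other than protein_coding with at least 5 called genes, and up to 3 called members of each of 39 lists with the smallest p. The members and lists were chosen with earlier results of these data known. Replicate numbers did not pair the libraries. Alternatives were DESeq2 1.42.0 size factors and Wald test, ERCC scaling, library size alone, other filters, a fold threshold, a replicate block, leaving out each library and adding KO replicates 1 and 2 into 1 library; a block by mitochondrial ribosomal RNA was chosen after seeing the data. Intervals cover counting error only and do not allow for the choice of genes. Results for some named genes are not reported here.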

Additional observations from a re-analysis of the deposited data

How the results depend on the processing

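The direction split depended on scaling. With ERCC scaling 2731 genes fell, and with library size alone 7439 rose and 2817 fell, against 4398 and 5473 with TMM scaling. A test against a log2 change of 0.5 called 1837 genes, 1236 up and 601 down. The other settings stayed within 1.5 times of the 9871 calls: DESeq2's Wald test gave 8623 and its size factors 9816, scaling to ERCC 7103, library size alone 10256, no filter 10516 and a mean of at least 50 counts 8333. Leaving out each library in turn gave 8145 to 10151 calls, KO replicates 1 and 2 added together 8512, and the block by mitochondrial ribosomal RNA 9186. The fit with the replicate block gave 10384 calls; samples with the same number had deviation correlations of -0.04, 0.16 and 0.23, so the numbers were not taken as pairs. Of 168 named genes other than PPM1G, 106 kept their call under every alternative that gave a value and 62 did not. These alternatives include the test against a log2 change of 0.5, which a gene of small change cannot pass. RN7SL1, FAT1 and SCD lost their call under that test alone, and the 7SL row RN7SL4P under 4 alternatives. ZNF252P, at -0.17 with TMM scaling, was at 0.0123 with library size alone, where it was not called. PPM1G kept its call throughout. At these depths a gene under about 0.1 CPM in a group has few counts, and its fold change is imprecise.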
